A study of Homo sapiens with 4 samples.

Results

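The genes described here encode 9 proteins of the red cell surface: the glycophorin genes GYPB, GYPC and GYPE, the Rh genes RHAG and RHCE, the band 3 gene SLC4A1, the Kell gene KEL, the Scianna gene ERMAP and the scavenger receptor gene CD36. They were picked out of the 64252 genes of the table for that role, with their values after dBET1 and after DMSO already known. The levels and fold changes below therefore describe these genes and do not test them. RNA was taken from cells labelled NB4, an acute promyelocytic leukemia line that carries the PML-RARa fusion. The cells had been kept for 24 h with 8 μM dBET1 (2 libraries) or with DMSO, the solvent (2 libraries). dBET1 is a degrader that ties the BET bromodomain proteins to the ubiquitin ligase adaptor cereblon, so that the BET proteins are broken down. All libraries come from 1 line at 1 dose and 1 time, and the labels do not say whether replicates 1 and 2 of a group were separate cultures. The spread between them may thus be technical, and the p-values given for other genes measure that spread only.

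The red cell membrane carries a small set of abundant proteins that bear most blood group antigens. Glycophorins are sialic acid-rich single-pass proteins, and glycophorin C also ties the membrane to the skeleton beneath it. Band 3 exchanges chloride for bicarbonate and sits in complexes with glycophorins and with the Rh proteins, which reach the surface only together with the Rh-associated glycoprotein RHAG. Kell is an ectoenzyme, ERMAP a butyrophilin-like adhesion protein, and CD36 a fatty acid and lipoprotein receptor that is shared by early erythroid cells, platelets and monocytes. During erythroid maturation many of these genes are switched on under the transcription factor GATA1, which binds the DNA word GATA, at different stages: RHAG and the glycophorins come up early and band 3 late.

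The libraries held 28019956 to 34685645 counts. The libraries of a pair differed by more than the counting error, so neither is a copy of the other. The label was checked against marker genes before any result was read. The 11 erythroid markers summed to 209116 and 218114 counts under DMSO and to 116043 and 115803 counts under dBET1, and none was at 0. The most abundant were the globin genes HBG2, HBE1, HBG1, HBA1, HBA2 and HBZ, whose reads can be shared between near-identical copies. The 10 promyelocyte and neutrophil markers summed to 1347 and 1243 counts under DMSO and to 1140 and 1187 under dBET1. Of their defining members, MPO, ELANE and CTSG had 0 counts in both DMSO libraries, and ELANE and CTSG had 0 in all 4. Most of the list's DMSO counts were those of SPI1 (904 and 809) and CD33 (323 and 335), both named after their values were seen. NB4 is a promyelocytic line, yet its defining granule markers were absent or nearly so while erythroid markers were abundant. This conflict with the label was not resolved. The cells are named below as the libraries are labelled. The 10 megakaryocyte and platelet markers summed to 577 to 1559 counts, with GP9, PF4, PPBP and VWF at 0 in both DMSO libraries. The 8 monocyte and macrophage markers summed to 1191 and 1154 counts under DMSO and to 888 and 933 under dBET1, with CD163 at 0 in both DMSO libraries.

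The sequences just upstream of the genes are shown first, because 6 of the 9 genes were lower and 3 higher after dBET1 and a reader can compare the promoters of both kinds. RefSeq start sites (GRCh38.p14) were found for 8 of the 9 genes. Each stretch holds the 250 bases before a start site, read 5′ to 3′ on the gene's own strand. Capitals mark GATA words: on either strand, GATA with A or T before it and A or G after it. For the genes that were lower after dBET1, GYPB (chr4:144019346-144019595, minus strand) and GYPE (chr4:143905560-143905809, minus strand) are shown as near copies of each other, RHAG (chr6:49636840-49637089, minus strand) as the member with the highest level, RHCE (chr1:25420826-25421075, minus strand) as its Rh partner, and GYPC (chr2:126655908-126656157, plus strand) as the glycophorin that belongs to another family. For the genes that were higher, KEL (chr7:142962364-142962613, minus strand) and ERMAP (chr1:42825311-42825560, plus strand) are shown. GYPB, RHCE and ERMAP have 2 starts each, and the start shown was chosen with the GATA words in view: the other start of GYPB holds 1 such word, and the other starts of RHCE and ERMAP hold none.
GYPB: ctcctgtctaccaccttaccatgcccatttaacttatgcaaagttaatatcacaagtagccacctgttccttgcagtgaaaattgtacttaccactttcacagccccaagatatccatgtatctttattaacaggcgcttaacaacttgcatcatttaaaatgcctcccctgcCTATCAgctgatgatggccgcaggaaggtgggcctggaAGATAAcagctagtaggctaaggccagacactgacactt
GYPE: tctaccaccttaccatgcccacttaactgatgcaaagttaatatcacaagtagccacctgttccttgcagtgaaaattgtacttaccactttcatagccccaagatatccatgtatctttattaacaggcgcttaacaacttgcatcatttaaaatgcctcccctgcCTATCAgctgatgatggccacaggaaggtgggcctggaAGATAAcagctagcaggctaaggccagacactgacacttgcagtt
RHAG: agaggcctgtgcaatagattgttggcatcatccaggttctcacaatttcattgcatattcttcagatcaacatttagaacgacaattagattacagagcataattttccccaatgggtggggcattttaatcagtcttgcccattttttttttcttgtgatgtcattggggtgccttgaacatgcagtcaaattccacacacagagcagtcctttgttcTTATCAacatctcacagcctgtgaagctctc
RHCE: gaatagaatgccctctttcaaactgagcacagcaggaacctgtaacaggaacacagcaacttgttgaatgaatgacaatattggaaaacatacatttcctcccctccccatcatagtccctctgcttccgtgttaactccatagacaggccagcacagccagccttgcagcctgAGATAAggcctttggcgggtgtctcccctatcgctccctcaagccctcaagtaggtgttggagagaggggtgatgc
GYPC: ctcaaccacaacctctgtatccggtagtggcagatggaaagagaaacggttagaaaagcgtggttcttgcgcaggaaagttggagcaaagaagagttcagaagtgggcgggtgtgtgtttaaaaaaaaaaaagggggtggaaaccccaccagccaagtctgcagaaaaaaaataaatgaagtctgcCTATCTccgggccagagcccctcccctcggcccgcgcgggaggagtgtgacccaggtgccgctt
KEL: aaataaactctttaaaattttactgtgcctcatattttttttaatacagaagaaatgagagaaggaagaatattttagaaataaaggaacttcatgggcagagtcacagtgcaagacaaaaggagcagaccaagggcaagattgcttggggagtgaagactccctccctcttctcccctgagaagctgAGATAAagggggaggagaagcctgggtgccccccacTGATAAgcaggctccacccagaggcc
ERMAP: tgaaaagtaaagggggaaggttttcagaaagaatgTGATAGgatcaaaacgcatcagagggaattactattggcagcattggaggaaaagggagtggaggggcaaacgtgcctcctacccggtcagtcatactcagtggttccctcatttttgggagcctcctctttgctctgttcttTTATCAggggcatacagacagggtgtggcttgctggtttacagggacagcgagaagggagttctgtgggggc

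A GATA word was found in at least 1 start of each of these 8 genes, and in 10 of their 16 starts, against 22.3% of the 35116 RefSeq promoters of the same length. The word stood at 77 and 39 bases before the start in GYPB, at 83 and 45 bases in GYPE, at 31 in RHAG, at 76 in RHCE, at 64 in GYPC, at 62 and 26 in KEL and at 215 and 72 in ERMAP. The genes that were lower and those that were higher both carried it. CD36 had 6 starts, of which 2 held the word. Some stretches of 1 gene overlap, as in CD36 and GYPB, and near copies share their letters, so these counts are not independent. The upstream stretches of GYPB and GYPE shared 239 of 250 bases (95.6%), and those of RHCE and its neighbour RHD shared 248 of 250 (99.2%). The CACCC word of KLF-type factors (CCNCNCCC, both strands) was found in the shown stretches of GYPC, RHAG, RHCE, KEL and ERMAP and in 53.4% of all promoters, so it is common. A match is only a description of the letters. Of the genes of these factors, GATA1 had 221 ± 20.1 CPM under DMSO and 157 ± 4.26 CPM under dBET1, and KLF1 had 230 ± 29.2 and 50.4 ± 2.38 CPM (SD, n = 2 per group), both named after their values were seen. CPM here means counts per 1000000 counts of the TMM-scaled library.

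Taken as a sum, the 9 genes held 1006 and 973 CPM in the DMSO libraries and 583 and 591 CPM in the dBET1 libraries. The sum was 990 ± 23.4 CPM under DMSO and 587 ± 6.17 CPM under dBET1 (SD, n = 2 per group), a ratio of 0.593. RHAG and GYPC make up most of it. Lower after dBET1 were 6 genes (RHAG, RHCE, GYPB, GYPE, GYPC and CD36), and 3 were higher (SLC4A1, KEL and ERMAP), and for each of the 9 the DMSO and dBET1 values did not overlap. Groups of 2 that do not overlap were common in these data: 37.4% of the 17971 tested genes were lower and 41.9% higher in this sense. At an adjusted p under 0.05 (edgeR's quasi-likelihood test, Benjamini-Hochberg) 6 of the 9 were lower and 3 higher, where 27.6% of all tested genes were lower and 28.0% higher. With the further limit of an absolute log2 fold change above 1, 3 were lower (GYPB, GYPC and CD36) and 1 was higher (SLC4A1), where 8.54% of all tested genes were lower and 16.9% higher. The choice of the genes used this contrast, so nothing is read from the counts. The median log2 fold change of the 9 was -0.77, beside 0.05 over all tested genes. In bulk RNA, fewer cells that express a gene and less RNA per cell cannot be told apart. Of the 11 erythroid markers 9 fell and none rose at an adjusted p under 0.05 (quasi-likelihood test of edgeR), 4 of them past the limit. Their sum went from 6029 and 7121 per 1000000 counts under DMSO to 4141 and 4085 under dBET1, and its part in the results was not tested.

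**Figure D1:**
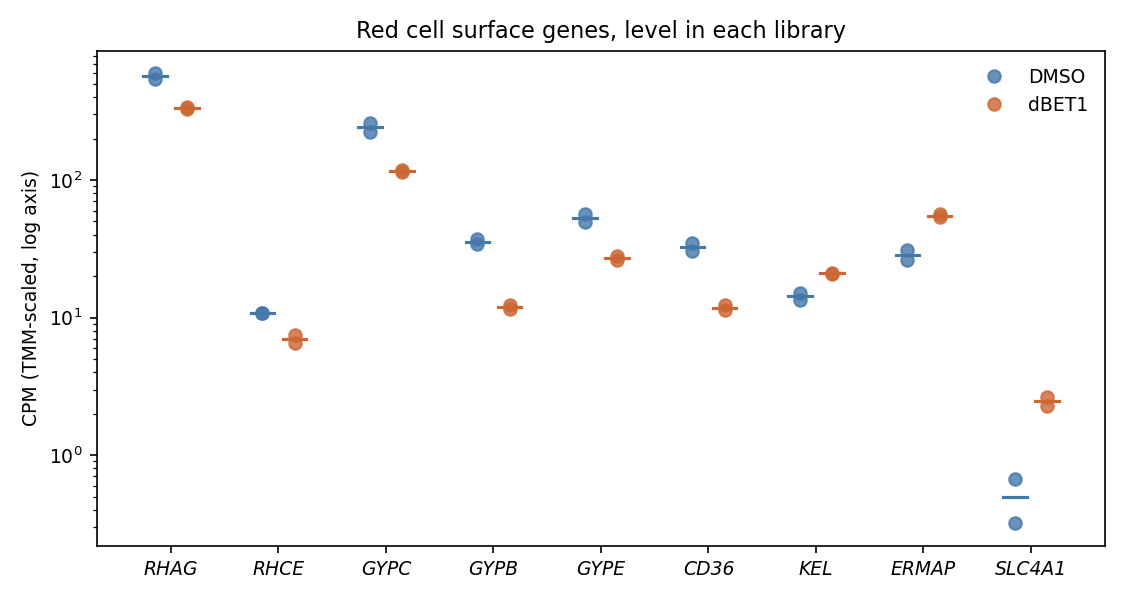
Level of each of the 9 genes in each library, in TMM-scaled CPM on a log axis; points are the 2 libraries of a group (blue DMSO, orange dBET1) and bars the group means. The DMSO and dBET1 points of each gene are separate, with RHAG highest and SLC4A1 lowest, and KEL, ERMAP and SLC4A1 are the 3 genes with higher dBET1 points.

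RHAG, on chromosome 6 (hg38 chr6:49605175-49636839, minus strand), encodes the Rh-associated glycoprotein, a channel-like protein that carries ammonia and on which the Rh proteins depend. It had 19510 and 15321 counts under DMSO and 9904 and 10321 counts under dBET1. In CPM these are 598 and 545 against 330 and 338. Both dBET1 values lay well below both DMSO values. The mean went from 572 ± 37.3 to 334 ± 5.73 CPM (SD, n = 2 per group), for a log2 fold change of -0.77 with a standard error (SE) of 0.07. No other of the 9 genes had so many counts, and its SE was the smallest of the 9.

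RHCE, on chromosome 1 (chr1:25362249-25430192, minus strand), carries the C, c, E and e antigens. Its counts were 355 and 302 under DMSO and 223 and 201 under dBET1, or 10.9 and 10.7 CPM against 7.43 and 6.58 CPM. Both groups were tight and did not overlap. The log2 fold change was -0.63 (SE 0.17). RHD, the neighbouring gene of the D antigen (chr1:25272393-25330445, plus strand), had 331 and 275 counts under DMSO and 205 and 180 under dBET1, and fell by 0.65 on the log2 scale (SE 0.18, adjusted p = 0.0169, quasi-likelihood test of edgeR, Benjamini-Hochberg adjusted). This call was lost without dBET1 replicate 2 (adjusted p = 0.114 from edgeR) and with total counts only (adjusted p = 0.0719 from edgeR). The protein-coding transcripts of the pair were identical at 96.9% of 1212 aligned bases, while only 59 of 3271 windows of 150 bases in RHCE transcripts (1.80%) also occurred in RHD. How the counting split such reads is not known, so the sum of the pair is the safer value. RHCE and RHD together held 21.0 and 20.5 CPM under DMSO and 14.3 and 12.5 CPM under dBET1, a log2 difference of -0.64. RHCE held 51.7% and 52.3% of the pair's CPM under DMSO and 52.1% and 52.8% under dBET1, so its share moved by little more than 1 point. The 3′ end of RHCE shares 113 exon bases with TMEM50A on the opposite strand. TMEM50A had 1732 and 1379 counts under DMSO and 2590 and 2671 under dBET1, higher where RHCE was lower. RHD shares 47 exon bases with RSRP1, also on the opposite strand, which had 1462 and 1337 counts under DMSO and 2705 and 3058 under dBET1. The strand setting of the counting is not stated, so some reads of TMEM50A and RSRP1 could stand in the RHCE and RHD counts and in their sum.

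The RHAG protein joins the Rh proteins in 1 complex, so the genes were also set against each other per length of exon sequence. RHAG per kb over RHCE plus RHD per kb was 30.2 and 28.1 under DMSO and 24.5 and 28.7 under dBET1. One dBET1 value lay inside the range of the DMSO values and the other below it, so this ratio was not separated between the groups.

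GYPB and GYPE lie near each other on the minus strand of chromosome 4, at chr4:143996104-144019380 and chr4:143870864-143905563. Glycophorin B carries the S and s antigens, and GYPE is a copy whose protein on the red cell is not well established. GYPB had 1215 and 959 counts under DMSO and 370 and 352 counts under dBET1. These are 37.2 and 34.1 CPM against 12.3 and 11.5 CPM. The dBET1 values were far below the DMSO values, with a ratio of 0.334 and a log2 fold change of -1.58 (SE 0.12). Of the 6 lower genes, GYPB had the largest fold.

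GYPE had 1842 and 1390 counts under DMSO and 781 and 860 under dBET1, or 56.4 and 49.5 CPM against 26.0 and 28.2 CPM. The groups did not overlap, and the log2 fold change was -0.97 (SE 0.11), just short of the limit of 1. Past the limit it was -1.09 without DMSO replicate 2, -1.04 without dBET1 replicate 2, -1.0023 with DESeq2 and -1.02 with no count filter.

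The genes are near copies. Their protein-coding transcripts were identical at 91.5% of 295 aligned bases. At the length of 1 read, 150 bases, 18 of 2634 windows of GYPB transcripts (0.683%) also occurred in another gene, and none of 2003 windows of GYPE did. Together GYPB and GYPE held 93.7 and 83.6 CPM under DMSO and 38.4 and 39.7 CPM under dBET1, a log2 difference of -1.18. Within that sum the share of GYPB was 39.7% and 40.8% under DMSO and 32.1% and 29.0% under dBET1. GYPB thus took a smaller part of the pair's counts in both dBET1 libraries than in both DMSO libraries. This comparison is a description, since the genes were chosen on the same contrast.

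**Figure D2:**
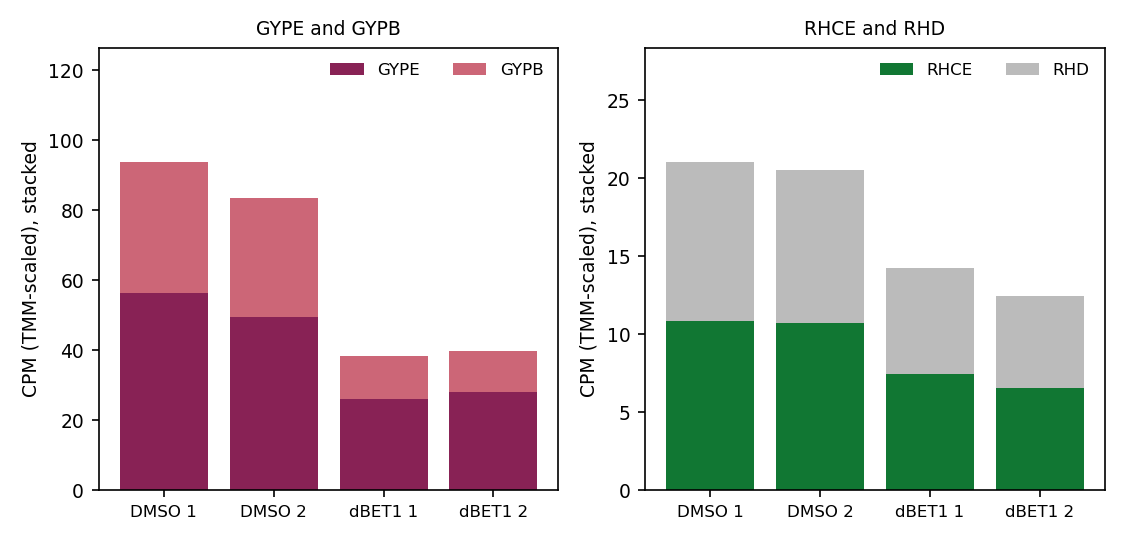
TMM-scaled CPM of GYPE and GYPB (stacked, left) and of RHCE and RHD (stacked, right) in each of the 4 libraries, on linear axes that start at 0. The glycophorin pair's height is 93.7 and 83.6 CPM under DMSO and 38.4 and 39.7 CPM under dBET1, the GYPB segment is a smaller part of the dBET1 bars than of the DMSO bars, and RHCE and RHD keep nearly equal parts of a lower bar.

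GYPC, on chromosome 2 (chr2:126656133-126696667, plus strand), is not related in sequence to the other glycophorins. Its messenger RNA gives both glycophorin C and the shorter glycophorin D, which carry the Gerbich antigens and bind the skeleton proteins made from EPB41 and MPP1. GYPC had 7316 and 7341 counts under DMSO and 3559 and 3500 counts under dBET1, or 224 and 261 CPM against 119 and 115 CPM. The DMSO libraries differed by more than the dBET1 libraries, yet the groups were far apart. The mean went from 243 ± 26.2 to 117 ± 2.78 CPM (SD, n = 2 per group), for a log2 fold change of -1.06 (SE 0.09). Without DMSO replicate 2, the higher of the pair, the log2 fold change was -0.97 and no longer past the limit of 1, and it was -0.99 with at least 10 counts in every library. None of 3710 windows of 150 bases in GYPC transcripts occurred in another gene.

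CD36, on chromosome 7 (chr7:80369575-80679277, plus strand), had 1133 and 857 counts under DMSO and 341 and 375 counts under dBET1. These are 34.7 and 30.5 CPM against 11.4 and 12.3 CPM. The groups were separate, with a ratio of 0.363 and a log2 fold change of -1.46 (SE 0.13). CD36 is also a gene of platelets and monocytes. The summed megakaryocyte and platelet markers were 39.2 and 50.9 per 1000000 counts under DMSO and 20.6 and 29.7 under dBET1, lower under dBET1 as well, and the part of such cells in the CD36 counts was not tested. The summed monocyte and macrophage markers were 34.3 and 37.7 per 1000000 under DMSO and 31.7 and 32.9 under dBET1. Among the 7 of these 8 monocyte markers that were tested, 5 rose past the limit and 1, CD68, fell past it, while LYZ fell by 0.70 on the log2 scale (edgeR's quasi-likelihood test); both are named after their values were seen.

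KEL, on chromosome 7 (chr7:142941114-142962363, minus strand), encodes the Kell glycoprotein, a zinc-dependent endopeptidase bound through a disulfide bridge to the membrane protein XK. It had 435 and 427 counts under DMSO and 638 and 629 counts under dBET1, or 13.3 and 15.2 CPM against 21.3 and 20.6 CPM. The dBET1 values lay above both DMSO values. The log2 fold change was 0.55 (SE 0.13), the smallest in size of the 9. XK, which was named as the partner after its values were seen, had 43.0 ± 4.31 CPM under DMSO and 55.7 ± 3.28 CPM under dBET1 (SD, n = 2 per group), for a log2 fold change of 0.37 (adjusted p = 0.0175, edgeR's quasi-likelihood test).

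ERMAP, on chromosome 1 (chr1:42817122-42844991, plus strand), had 1004 and 741 counts under DMSO and 1606 and 1737 counts under dBET1. In CPM these are 30.8 and 26.4 against 53.5 and 56.9. Both dBET1 values were well above both DMSO values, with a ratio of 1.93 and a log2 fold change of 0.95 (SE 0.11). Without DMSO replicate 1 it was 1.04, past the limit of 1. The log2 fold change was also past it with at least 10 counts in every library (1.02) and with total counts only (1.16). ERMAP shares 478 exon bases with ZNF691-DT and 64 with SVBP, both on the opposite strand. ZNF691-DT had 40 and 44 counts under DMSO and 56 and 84 under dBET1, few beside those of ERMAP, and SVBP had 517 and 505 against 432 and 498.

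SLC4A1, on chromosome 17 (chr17:44248390-44268141, minus strand), encodes band 3, the anion exchanger and the most abundant protein of the mature red cell membrane. It was nearly silent here, with 22 and 9 counts under DMSO and 68 and 81 counts under dBET1. These are 0.674 and 0.320 CPM against 2.27 and 2.65 CPM. The dBET1 values were several times the DMSO values, with a ratio of 4.85 and a log2 fold change of 2.28 (SE 0.41), the largest in size and the least precise of the 9. Without DMSO replicate 1 the log2 fold change was 2.90 and without DMSO replicate 2 it was 1.83. Leaving out a dBET1 library in turn gave 2.38 and 2.15. SLC4A1 was also the only one of the 9 that did not reach 10 counts in every library. Its promoter sequence was not used here.

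**Figure D3:**
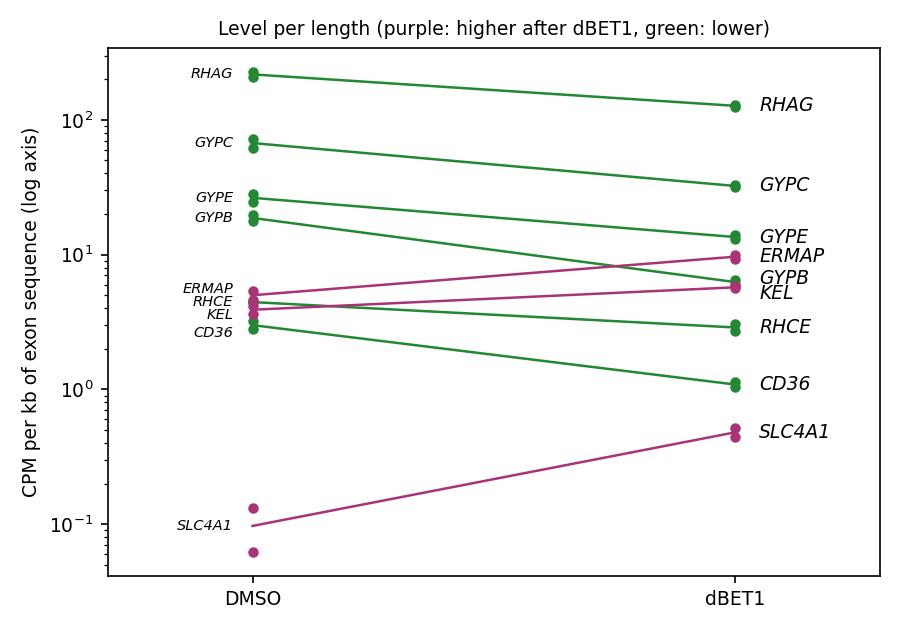
Level per length, in TMM-scaled CPM per kb of exon sequence on a log axis, of the 9 genes under DMSO (left) and dBET1 (right); points are libraries, lines join the group means, green marks genes lower and purple genes higher after dBET1. RHAG stays first and SLC4A1 last in both groups, and KEL moves up past RHCE; ERMAP moves up past GYPB on this length, but not per kb of the longest transcript.

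Per kb of exon sequence the genes spanned a wide range of levels. With DMSO the order of mean CPM per kb was RHAG at 217 ± 14.2, GYPC at 67.25 ± 7.25, GYPE at 26.4 ± 2.46, GYPB at 18.7 ± 1.15 and ERMAP at 4.99 ± 0.544 (SD, n = 2). RHCE stood at 4.44 ± 0.0386, KEL at 3.90 ± 0.360, CD36 at 3.19 and 2.80 in its libraries and SLC4A1 at 0.0970 ± 0.0488 CPM per kb. RHAG was at rank 171 and GYPC at rank 719 of all genes on this scale, and SLC4A1 at rank 18917. With dBET1 the order became RHAG at 127 ± 2.18, GYPC at 32.3 ± 0.770, GYPE at 13.5 ± 0.757, ERMAP at 9.65 ± 0.419, GYPB at 6.26 ± 0.296, KEL at 5.72 ± 0.126, RHCE at 2.88 ± 0.246, CD36 at 1.09 ± 0.0599 and SLC4A1 at 0.480 ± 0.0535 CPM per kb. In neither group did the 2 values of neighbours in the order overlap. On this scale ERMAP stood above GYPB and KEL above RHCE, unlike under DMSO. The place of GYPB depends on the length used: per kb of the longest transcript GYPB had 56.5 CPM under DMSO and 18.9 under dBET1, and GYPE had 31.4 and 16.1, which turns the order of that pair in both groups. On that length ERMAP had 14.0 CPM per kb under dBET1 and stayed below GYPB, while KEL had 5.72 and 8.39 against 5.97 and 3.87 for RHCE and still changed places with it.

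**Figure D4:**
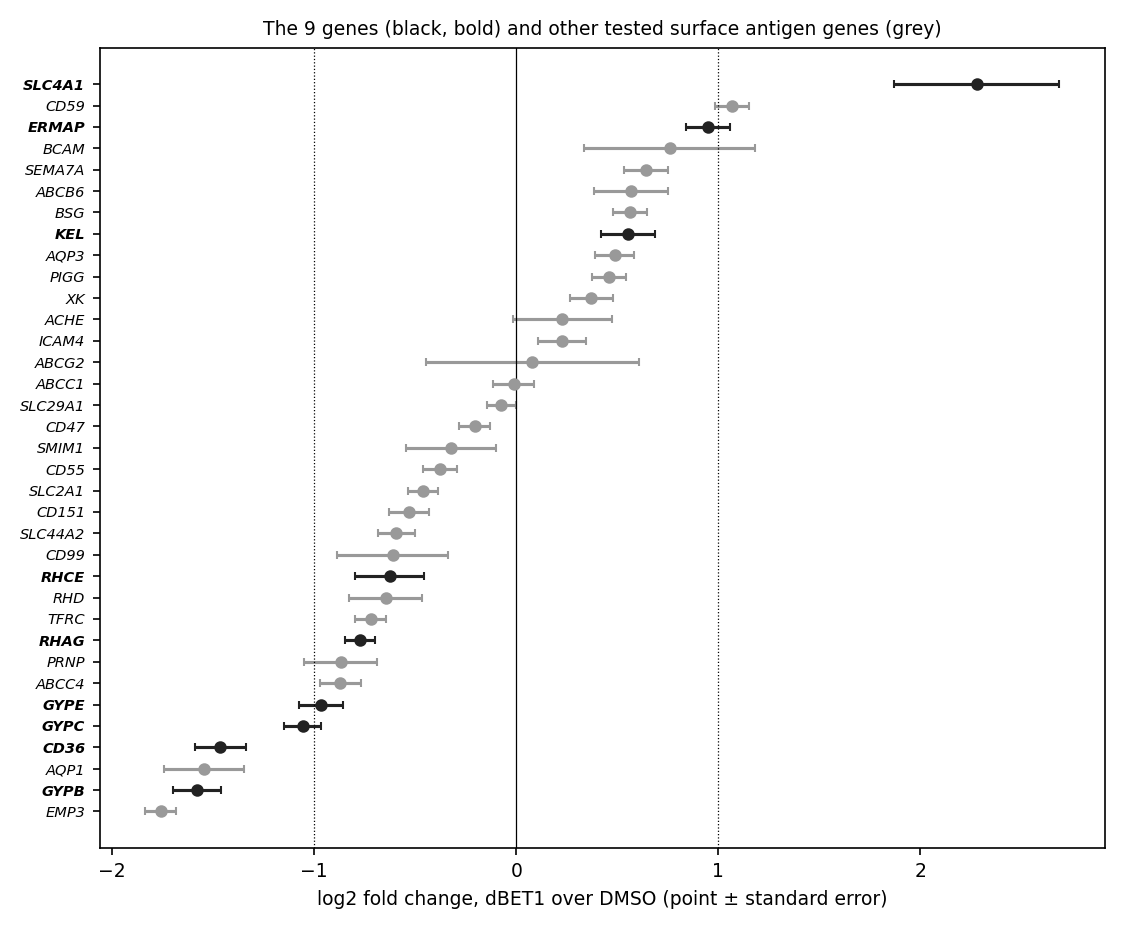
Log2 fold change of dBET1 over DMSO with its standard error for the 9 genes (black, bold) and 26 of the 27 other surface antigen genes that were tested (grey); dotted lines mark a log2 fold change of 1 in size. GYPB at -1.58 and CD36 at -1.46 lie near the lower end, SLC4A1 at 2.28 is highest, and most other surface genes lie between the dotted lines.

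For comparison, a list of 33 other genes of red cell surface antigens was counted in the same fit, of which 27 were tested. At both thresholds 3 fell and 1 rose, and at the adjusted p alone 11 fell and 7 rose, while 9 did not pass (quasi-likelihood test of edgeR, Benjamini-Hochberg adjusted over all 17971 genes). Their median log2 fold change was -0.21, which became 0.0035 with total counts only. Among those that fell, EMP3, whose protein carries the MAM antigen, fell from 304 ± 4.12 to 89.9 ± 4.88 CPM (SD, n = 2 per group), for a log2 fold change of -1.76 (SE 0.08, adjusted p = 7.28e-06). AQP1, the water channel of the Colton antigens, had 422 and 301 counts under DMSO and 130 and 115 under dBET1 (log2 fold change -1.55, adjusted p = 0.000435) and is named after its values were seen. The gene that rose was CD59, the inhibitor of the complement attack complex, from 41.5 ± 0.0700 to 87.0 ± 3.74 CPM (SD, n = 2 per group), for a log2 fold change of 1.07 (SE 0.09, adjusted p = 4.71e-05). ACKR1, SLC14A1, CD44, XG, ART4 and CR1 were not tested, and ACKR1, SLC14A1 and CD44 had 0 counts in all 4 libraries.

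The proteins that hold band 3, the Rh complex and glycophorin C to the skeleton were counted as a list of 12 genes, of which 11 were tested. Of these, 2 fell past the limit and none rose past it, while at the adjusted p alone 5 fell and 2 rose. The median log2 fold change of the list was -0.60, and it was -0.39 with total counts only, -0.34 with counts divided by 2 and -0.30 with at least 10 counts in every library. ADD2, the beta subunit of adducin, fell from 162 ± 8.61 to 45.2 ± 0.916 CPM (SD, n = 2 per group), for a log2 fold change of -1.84 (SE 0.08, adjusted p = 7.91e-06, edgeR's quasi-likelihood test). Partners of glycophorin C, named after their values were seen, went opposite ways: MPP1 fell by 0.95 on the log2 scale (SE 0.07, adjusted p = 3.27e-05) and EPB41 rose by 0.34 (SE 0.09, adjusted p = 0.0149). ANK1, the ankyrin that binds band 3, also named after its values were seen, had 438 ± 21.4 CPM under DMSO and 415 ± 0.347 CPM under dBET1 (SD, n = 2 per group) and did not pass the test (log2 fold change -0.08, adjusted p = 0.374).

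The fold changes were recomputed under other processing choices. For each of the 9 genes the sign was the same in all 98 values. Scaling by total counts only, which leaves out the TMM factors and raises the median log2 fold change of all genes from 0.05 to 0.26, moved every gene upward: RHAG to -0.57, RHCE to -0.42, GYPB to -1.37, GYPE to -0.76, GYPC to -0.85, CD36 to -1.25, KEL to 0.77, ERMAP to 1.16 and SLC4A1 to 2.48.

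**Figure D5:**
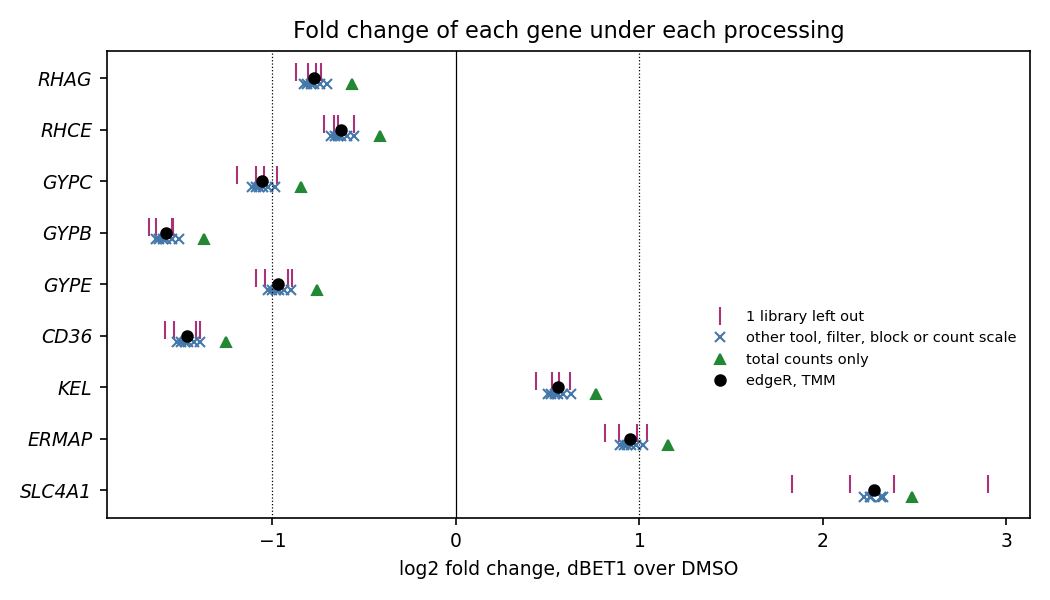
Log2 fold change of dBET1 over DMSO of each of the 9 genes with edgeR and TMM scaling (black). Purple bars are values with 1 library left out and green triangles those with total counts only. Blue crosses are values with another tool, count filter, block or count scale, and dotted lines mark a log2 fold change of 1 in size. No gene changes sign, GYPC, GYPE and ERMAP cross the dotted lines, and SLC4A1 has the widest range, 1.83 to 2.90.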

How the data were processed

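RNA of 4 libraries was sequenced (150 bp paired-end reads). The authors received filtered reads from the sequencing provider, mapped these on hg38 using HISAT2 2.2.0 and estimated abundances with StringTie. They deposited whole-number counts per gene, not normalized. The step that made counts from abundances and its strand setting are not given in the sources used here. The labels name TRIzol for RNA extraction and the paper's methods a column kit.

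Columns were mapped to samples by group, time and replicate number, with 0 columns left out and 0 rows without a gene. GENCODE release 44 gave symbols and coordinates for 56105 of 64252 identifiers (the others held 2.57% of counts). Counts were filtered with filterByExpr, scaled by TMM and compared with edgeR 4.0.16 (quasi-likelihood test, group as the only term, Benjamini-Hochberg over 17971 genes) in R 4.3.3. A gene was called at an adjusted p under 0.05, or with an absolute log2 fold change above 1 as well, as in the paper's methods, which used DESeq2. SE is the fold change over the square root of F. The chi-square per degree of freedom between replicates was 23.6 (DMSO) and 8.14 (dBET1), where counting error alone gives about 1. The steps were tested on simulated data. Promoters came from RefSeq tables. Python 3.11.15 with Biopython 1.88 aligned transcripts and searched motifs.

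The genes described and all lists were chosen with earlier results of these data known. Named are the 9 genes, RHD, genes of the lists with at least 1000 counts in all that passed both thresholds, and the 6 most abundant markers; some results the rule covers are not reported here. Other genes are said to be named after their values were seen, or are markers at 0. Alternatives were DESeq2 1.42.0, its size factors, total counts only, other count filters, a replicate block, leaving out each library, no fold limit, counts divided by 2 and, for length, the longest transcript.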

Additional observations from a re-analysis of the deposited data

How the results depend on the processing

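With 2 libraries in each group an SD rests on 2 values, and no sample could be tested as an outlier. All 98 fold changes of the 9 genes under the alternatives kept their sign, and 94 had an adjusted p under 0.05; the exceptions were KEL without either dBET1 library, and RHCE with total counts only and without dBET1 replicate 2, both of which also ended the call of RHD. The count of 3 lower genes was 2 with total counts only and with the 10-count filter, when GYPC dropped out, and 4 with DESeq2, with no count filter and without dBET1 replicate 2, when GYPE joined; without DMSO replicate 2 GYPE took the place of GYPC. Without the fold limit, 6 of the 9 genes counted as lower and 3 as higher in place of 3 and 1, and 11 and 7 of the other surface antigen genes in place of 3 and 1. With total counts only, 2 of the 9 genes were higher past the limit; with 1 library left out this count was 1 to 2, and it was 2 without DMSO replicate 1, when ERMAP joined SLC4A1. With no count filter, 2 of the other surface antigen genes were higher. The 10-count filter left SLC4A1 untested, and the 1 gene of the 9 that was higher past the limit was then ERMAP. The median log2 fold change changed sign for the other surface antigen genes with total counts only (0.0035), for the carbohydrate enzymes with DESeq2 (0.053), total counts only (0.12) and no filter (0.034), and for the relatives of the 9 genes with DESeq2 (0.018), total counts only (0.043) and without DMSO replicate 1 (0.066; with each library left out in turn, -0.16 to 0.066); the cause was not tested. With at least 10 counts and with counts divided by 2 the medians were -0.44 and -0.36 for the enzymes and -0.32 and -0.33 for the relatives. Total counts only gave 952 lower genes over the whole table in place of 1535, and higher genes made up 80.2% of calls in place of 66.4%. With the replicate block, 3 of the 9 genes were lower and 1 was higher past the limit, as without it, and 1530 genes of the whole table were lower and 2945 higher; deviations of same-numbered libraries had a correlation of -0.00064 over 11967 genes, so the numbers do not pair the samples.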

Other observations

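The enzymes that build carbohydrate blood group antigens and the O-linked sugars of glycophorins were counted as a list of 20 genes, of which 16 were tested. None fell past the limit and 3 rose past it, while at the adjusted p alone 5 fell and 3 rose (quasi-likelihood test of edgeR, Benjamini-Hochberg adjusted), with a median log2 fold change of -0.09. The 3 that rose had few counts and are named after their values were seen. GALNT3, which starts O-linked chains, had 0 and 0 counts under DMSO and 48 and 47 under dBET1. GBGT1, the Forssman synthase gene, had 7 and 6 counts against 30 and 26, and FUT6, a fucosyltransferase, 0 and 2 against 12 and 12. The 5 that fell did so by less than the limit, and are also named after their values were seen. GALNT2, which starts O-linked chains too, went from 317 ± 1.13 to 201 ± 2.65 CPM (SD, n = 2 per group; adjusted p = 0.000154). C1GALT1, which adds the galactose of the core chain, had a log2 fold change of -0.52 (adjusted p = 0.00408), and the sialyltransferase genes ST3GAL1, ST3GAL2 and ST6GALNAC4 had -0.78, -0.27 and -0.60.

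Genes related in sequence to the 9 genes but not known as red cell antigens formed a list of 23, of which 14 were tested. Past the limit 2 fell and 1 rose, at the adjusted p alone 5 fell and 2 rose, and the median log2 fold change was -0.17. SCARB1, the HDL receptor and a relative of CD36, fell from 157 ± 3.61 to 47.5 ± 0.411 CPM (SD, n = 2 per group), for a log2 fold change of -1.72 (adjusted p = 7.96e-06, edgeR's quasi-likelihood test). ECE2, an endothelin-converting enzyme of the same peptidase family as KEL, fell from 53.9 ± 5.84 to 21.8 ± 0.626 CPM (SD, n = 2 per group), for a log2 fold change of -1.31 (adjusted p = 6.28e-05). SLC4A8, a bicarbonate transporter related to band 3, rose from 2 and 3 counts to 50 and 66 counts and is named after its values were seen. RHBG, a relative of RHAG, had 0 and 0 counts under DMSO and 4 and 0 under dBET1 and was not tested.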
